A study of Mus musculus with 12 samples.

Results

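The 35 genes described here are the p53 pathway and target genes of a fixed list: Trp53, which encodes p53, its negative regulators and genes listed as p53 targets. Whether p53 activates each of them in these cells was not tested. They were chosen by symbol, with earlier results of these data known, and each matched 1 of the 55416 genes in the deposited table. Cdkn1a, which encodes the cell cycle inhibitor p21, and Trp53cor1, which gives lincRNA-p21, do not belong to the list and serve as references. Both are counted among the further p53 targets given below. All 35 passed the filter on low values (a mean of at least 1 over all libraries, passed by 21799 genes), and all had a mean of at least 50. A single library held 21 to 25946 reads of a member.

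The cells were cultured neonatal mouse cardiomyocytes, heart muscle cells that respond to phenylephrine (PE), an alpha1-adrenergic agonist, by hypertrophic growth. Polyadenylated RNA of 4 groups was measured, with 3 libraries in each and 12 in all. PBS control received the vehicle PBS and a GapmeR negative control, and PBS knockdown received PBS and the lincRNA-p21 GapmeR. PE control and PE knockdown received the same oligonucleotides with PE for 24 hours. A GapmeR is an antisense oligonucleotide that lets RNase H cut its target RNA, and every group, the controls included, received one. The labels give no strain, no sex and no age beyond neonatal, and do not say whether replicates are separate cultures or share a preparation. The p-values therefore measure the spread between these libraries, which may be technical.

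p53 is a transcription factor that is kept low by the ubiquitin ligase MDM2 and its partner MDM4, and it builds up after DNA damage and other stress. It activates genes of cell cycle arrest, apoptosis, DNA repair and redox metabolism, and also Mdm2, which closes a negative feedback loop. LincRNA-p21 is itself a p53 target and lies next to Cdkn1a. In heart muscle p53 is known for its part in cell death and in the control of metabolism. Many of its targets also respond to other factors, so a change of a target's RNA does not measure p53 activity.

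The RNA targeted by the GapmeR was lower with it. Trp53cor1 had a normalised read count of 59.8, 70.6 and 63.2 in PBS control, 12.7, 22.6 and 10.1 in PBS knockdown, 56, 34 and 34.7 in PE control and 8.56, 9.97 and 8.93 in PE knockdown. Its log2 change with the knockdown was -2.10 ± 0.30 in PBS and -2.03 ± 0.30 in PE (limma standard error here and throughout, adjusted p = 2.01e-04 and 9.24e-05). Cdkn1a read 13816 ± 2296 in PBS control and 19735 ± 362 in PE control (mean ± SD, n = 3), and its log2 change with the knockdown was -0.10 ± 0.12 in PBS and -0.07 ± 0.12 in PE (limma, adjusted p = 0.734 and 0.807).

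Libraries held 21325485 to 22139681 recovered reads, with 4.33% to 10.7% of them in mitochondrial genes. Replicate 2 of PBS control, replicate 2 of PBS knockdown and replicate 1 of PE knockdown stood apart from the others of their group. The chi-square of read counts, divided by its degrees of freedom, was 22.1 to 53.5 for replicate pairs with one of these 3 and 2.42 to 23 for the others. Counts of called members are also given without these 3 libraries. The 8 cardiomyocyte markers summed to 516436 to 1145920 in a library, against 26758 to 70941 for 8 fibroblast markers, 2030 to 5956 for 8 endothelial markers and 1562 to 2512 for 8 leukocyte markers. No marker was at 0 in all 12 libraries.

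Per kilobase of exon, the level of the members in PBS control spanned from 6805 ± 134 for Ccng1, which encodes cyclin G1, to 29.5 ± 2.91 for Ddb2, a damage recognition factor (mean ± SD, n = 3, normalised reads per kilobase). After Ccng1 came Perp, a desmosomal and apoptotic membrane protein gene, with 4348 ± 561, Ephx1, an epoxide hydrolase gene, with 2624 ± 534, and Phlda3, a repressor of AKT signalling, with 2117 ± 27.1. Bax followed with 1130 ± 9.35 and Trp53 with 652 ± 38.5. At the low end stood Pmaip1 with 41.8 ± 6.58 and Plk3 with 40.4 ± 4.44. Of the 34 pairs of neighbours in this order, 19 overlapped in their libraries, while the 5 highest members did not overlap the one below them. In PE control, Plk2 with 1382 and Gdf15 with 1221 normalised reads per kilobase stood among the higher members.

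**Figure D1:**
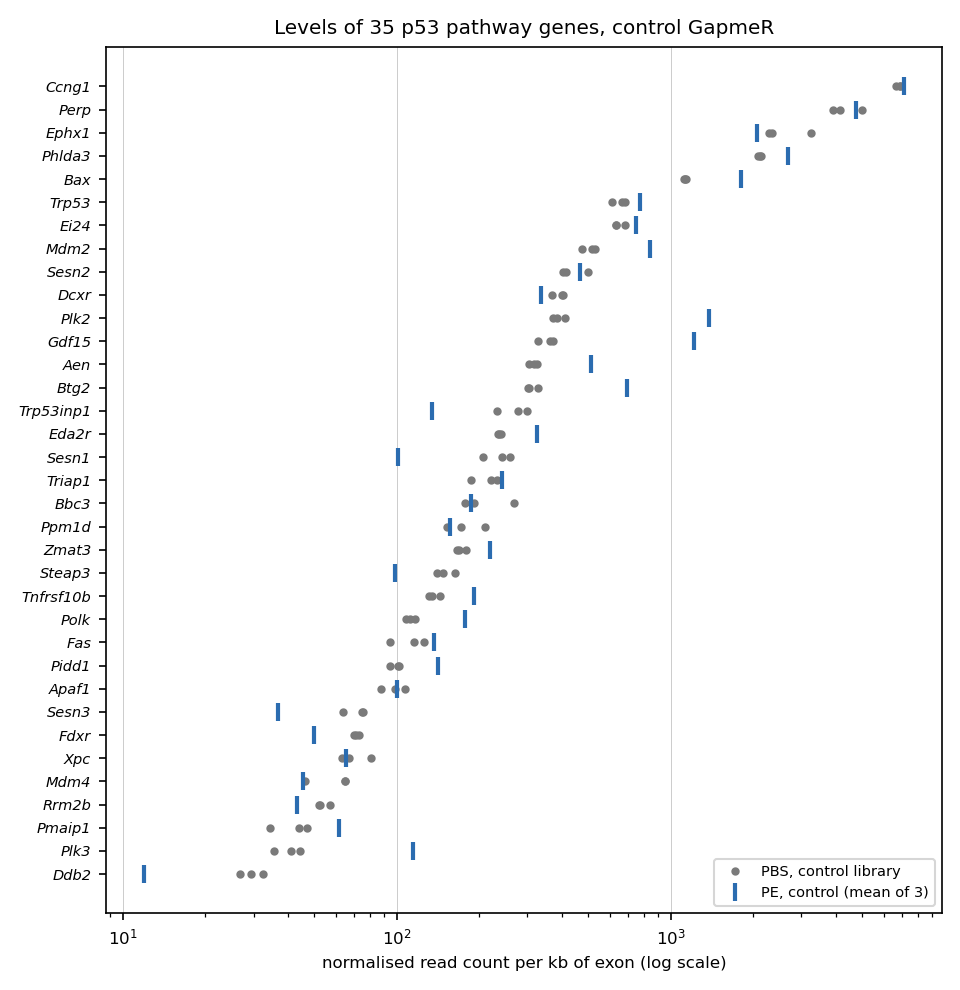
Level of the 35 members as normalised reads per kilobase of exon, on a log axis, ordered by their mean in PBS control. Points are the 3 PBS control libraries and blue bars the PE control mean. Ccng1 stands highest with a PBS control mean of 6805 and Ddb2 lowest with 29.5, and the bars of Plk2 and Gdf15 lie far to the right of their points.

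The first question is how PE, without the knockdown, bears on these genes. In control cells PE changed 21 of the 35 members, 14 higher and 7 lower (limma, adjusted p under 0.05). Of all 21799 genes tested 25.4% passed the same test (12.6% higher, 12.8% lower), and of the 12113 genes with a mean of at least 50, a set more like the members in level, 36.1% did. The PE and PBS libraries did not overlap for 24 members, against 41.7% of all genes. Here and below, that share is over all genes tested, many of them lower in level than the members. It was not worked out for genes with a mean of at least 50. The median log2 change of the members was 0.18, beside 0.01 for those 12113 genes. In knockdown cells PE changed 20 members, 14 higher and 6 lower, against a background of 27.4% of all genes (13.4% higher, 14% lower) and 40.6% of those with a mean of at least 50, and the median was 0.16. Libraries did not overlap for 20 members, against 38.7% of all genes. Without the 3 libraries that stood apart, 17 members were higher and 8 lower in control cells and 14 and 6 in knockdown cells. The direction split depended on the scaling: with every library rescaled to the same total, the median of the 12113 genes moved by -0.16 and -0.14, and the members split into 9 higher and 10 lower in control cells and 9 higher and 8 lower in knockdown cells. Among the members lower in control cells were then Ppm1d, Rrm2b and Ephx1.

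**Figure D2:**
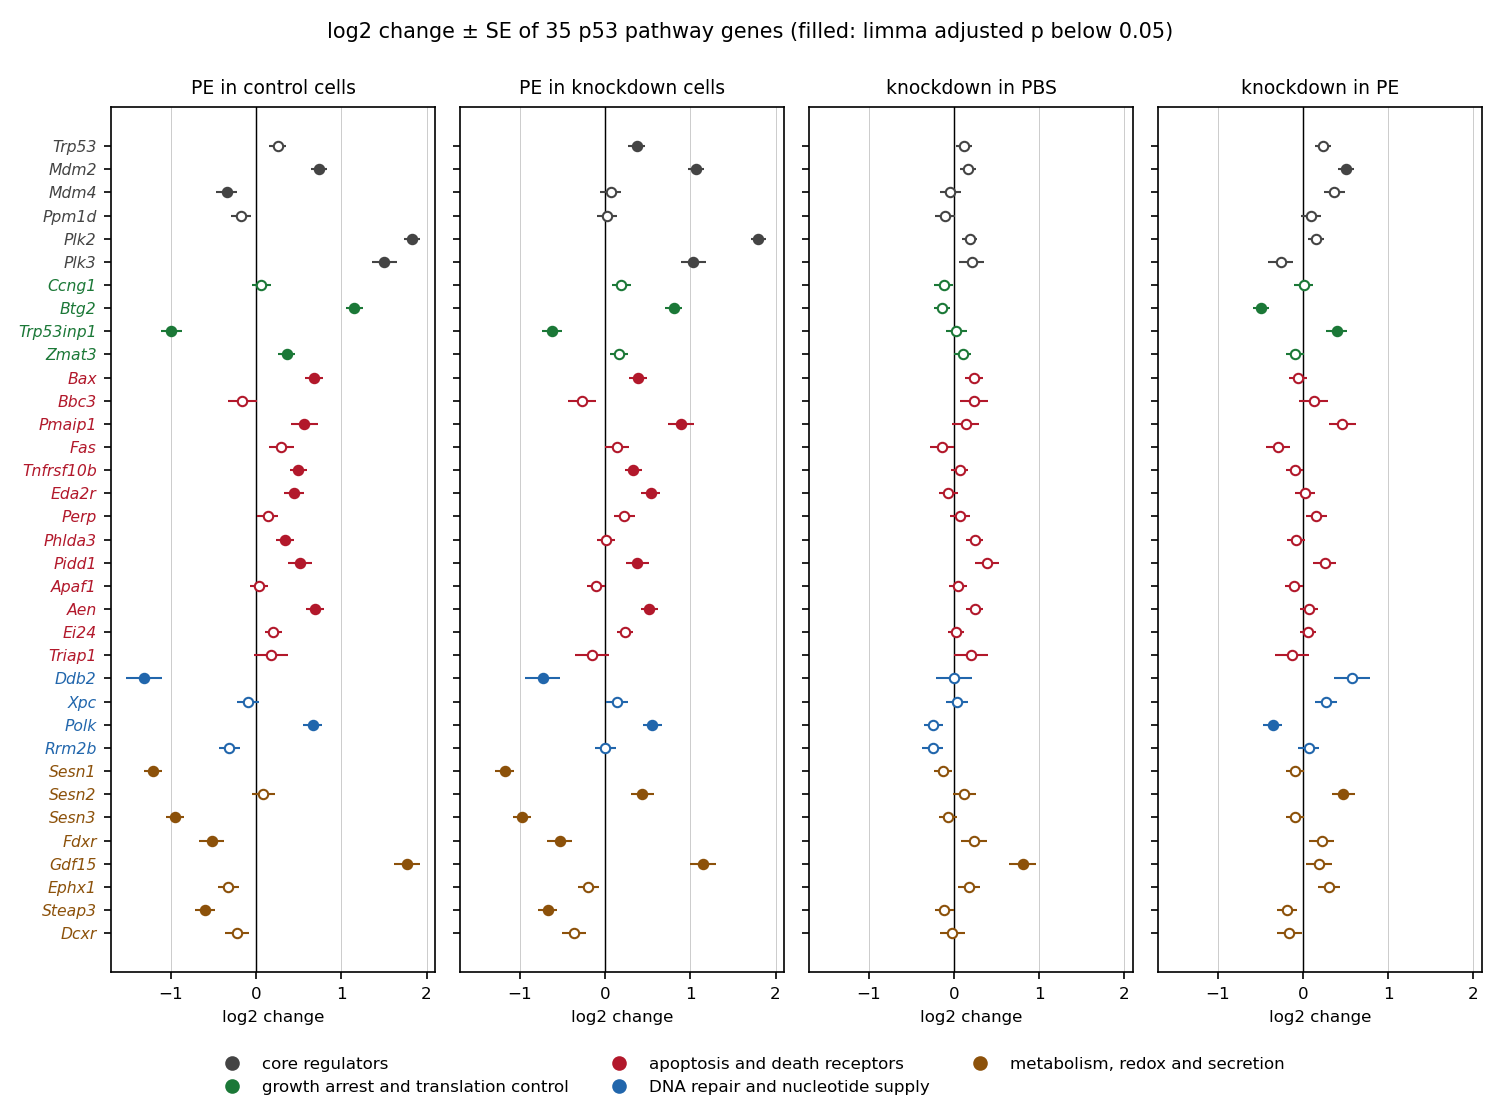
Log2 change of each of the 35 members in the 4 comparisons, with limma standard errors as bars, ordered by role. Filled points passed the test (adjusted p under 0.05): 21 for PE in control cells, 20 for PE in knockdown cells, 1 for the knockdown in PBS and 5 for the knockdown in PE.

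Markers of other cells moved with PE, beside the members' changes. The summed fibroblast markers ran from 63623 to 68671 in PBS control and from 32561 to 36978 in PE control, and 7 of 8 fell (8 of 8 in knockdown cells). The endothelial markers ran from 2063 to 2309 and from 5462 to 5956, with 7 of 8 higher and 1 lower in each arm. The summed levels of these 2 cell types thus went opposite ways. The leukocyte markers ran from 1580 to 2248 and from 1992 to 2285, with 4 of 8 higher in control cells and 5 in knockdown cells. Among the 6 markers of smooth muscle and pericytes, 2 were higher and 3 lower in control cells, and the 3 erythroid markers summed to at most 54.2 in a library. The cardiomyocyte markers ran from 636372 to 738210 and from 850568 to 1145920 with PE in control cells, and from 516436 to 560159 and from 686699 to 799926 in knockdown cells. Myh6, with a mean of 398432 over all libraries, made up a large part of these sums. In each arm 2 of the 8 were called higher (Myh6 and Ryr2) and 1 lower (Pln). The log2 change was negative for 4 of the 8 in control cells and for 2 in knockdown cells. In these bulk samples fewer cells of a type and less RNA per cell cannot be told apart, and the part of cell composition in the members' changes was not tested.

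Among the core regulators, PE raised the 2 polo-like kinase genes and Mdm2, while the log2 change of Trp53 was smaller. Plk2 (ENSMUSG00000021701.9, GRCm38 chromosome 13, 110395046 to 110400844, plus strand) encodes a kinase of the stress response and was the member with the largest rise. It read 1675, 1723 and 1841 in PBS control, 2196, 1823 and 1938 in PBS knockdown, 6267, 6406 and 5943 in PE control and 6911, 6966 and 6799 in PE knockdown. Every PE library lay above every PBS library, by about as much with either GapmeR. The log2 change was 1.83 ± 0.09 in control and 1.80 ± 0.09 in knockdown cells (limma, adjusted p = 3.33e-11 and 5.31e-11). Plk3 (ENSMUSG00000028680.15, GRCm38 chromosome 4, 117128655 to 117133963, minus strand), a related stress kinase gene, read 90.1, 104 and 112 in PBS control, 101, 146 and 111 in PBS knockdown, 307, 284 and 281 in PE control and 233, 243 and 250.2 in PE knockdown. All PE libraries were again above all PBS libraries, and PE control libraries were above those of PE knockdown. Its log2 change with PE was 1.50 ± 0.15 in control and 1.04 ± 0.15 in knockdown cells (limma, adjusted p = 2.81e-07 and 2.63e-05).

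Mdm2 (ENSMUSG00000020184.16, GRCm38 chromosome 10, 117688875 to 117710758, minus strand) encodes the ligase that marks p53 for degradation. It read 2406, 2616 and 2695 in PBS control, 3065, 2559 and 3035 in PBS knockdown, 4272, 4336 and 4230.1 in PE control and 6277, 6060.5 and 5802 in PE knockdown. The PE libraries did not overlap the PBS libraries, and PE knockdown libraries stood above all others. Mdm2 rose with PE by 0.74 ± 0.09 on the log2 scale in control and 1.07 ± 0.09 in knockdown cells (limma, adjusted p = 7.24e-06 and 6.89e-08).

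Trp53 (ENSMUSG00000059552.14, GRCm38 chromosome 11, 69580359 to 69591873, plus strand) read 2460.3, 2755 and 2696 in PBS control, 2730.0, 3123 and 2750.3 in PBS knockdown, 3065, 3249.5 and 3098 in PE control and 4031, 3675 and 3404 in PE knockdown. The PE libraries lay above the PBS libraries within each GapmeR, by a small margin. The log2 change was 0.25 ± 0.10 in control cells, which did not pass the test, and 0.37 ± 0.10 in knockdown cells, which did (limma, adjusted p = 0.0597 and 0.00643). In control cells Trp53 was called in 6 of 21 alternatives, among them DESeq2 and leaving out PBS knockdown replicate 2, PE knockdown replicate 1 or all 3 libraries that stood apart. The call in knockdown cells was lost under a common library total (limma, adjusted p = 0.0749). Mdm4 (ENSMUSG00000054387.14, GRCm38 chromosome 1, 132959484 to 133030561, minus strand), whose protein binds p53 and blocks its activity, read 959, 684 and 957 in PBS control, 779.7, 794 and 921 in PBS knockdown, 625, 707 and 690.4 in PE control and 855, 848 and 900.4 in PE knockdown. PBS control ran from 684 to 959 and overlapped PE control. Its log2 change of -0.35 ± 0.12 with PE in control cells passed the test (limma, adjusted p = 0.0437) but lost its call in 8 of 21 alternatives, among them leaving out PBS control replicate 1 or 3 or any PE control library. In knockdown cells its log2 change was 0.07 ± 0.12 (limma, adjusted p = 0.75). Ppm1d, which encodes the phosphatase WIP1 that switches off p53 signalling, had log2 changes of -0.18 ± 0.12 and 0.03 ± 0.12, and neither passed (limma, adjusted p = 0.313 and 0.901).

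The windows around the start sites of these genes were read from RefSeq (GRCm38.p6, 250 bases before to 50 after the start), which held 27 of the 35 members in 37 windows. The cyclic AMP response element TGACGTCA, which reads the same on both strands, occurred in 1.79% of all 32851 windows of this length and in those of 3 members, Plk2, Btg2 and Ppm1d. A p53 site, that is 2 copies of the p53 half-site with at most 2 mismatches among 20 letters, at most 1 base between the copies and intact cores, occurred in 0.32% of windows and, among members, in that of Bax. These 4 windows are shown because Plk2, Btg2 and Bax rose with PE and Ppm1d, which carries the same element as Plk2 and Btg2, did not pass the test. They are written 5′ to 3′ on the strand that reads like the RNA, with the match in capitals. They span chr13:110394794-110395093 (plus strand) for Plk2, chr1:134079106-134079405 (minus strand) for Btg2, chr11:85311004-85311303 (plus strand) for Ppm1d and chr7:45466849-45467148 (minus strand) for Bax.
Plk2: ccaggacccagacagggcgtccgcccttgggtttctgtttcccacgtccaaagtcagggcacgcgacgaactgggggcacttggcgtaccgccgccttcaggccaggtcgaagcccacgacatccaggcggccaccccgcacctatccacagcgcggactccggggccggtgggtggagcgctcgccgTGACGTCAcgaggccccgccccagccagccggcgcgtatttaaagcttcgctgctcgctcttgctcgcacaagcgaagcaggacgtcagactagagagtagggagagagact
Btg2: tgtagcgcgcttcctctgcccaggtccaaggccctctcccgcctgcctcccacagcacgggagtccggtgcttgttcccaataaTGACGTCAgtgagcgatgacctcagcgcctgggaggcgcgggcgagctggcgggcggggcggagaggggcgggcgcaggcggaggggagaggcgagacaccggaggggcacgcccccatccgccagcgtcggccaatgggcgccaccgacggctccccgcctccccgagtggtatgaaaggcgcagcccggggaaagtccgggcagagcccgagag
Ppm1d: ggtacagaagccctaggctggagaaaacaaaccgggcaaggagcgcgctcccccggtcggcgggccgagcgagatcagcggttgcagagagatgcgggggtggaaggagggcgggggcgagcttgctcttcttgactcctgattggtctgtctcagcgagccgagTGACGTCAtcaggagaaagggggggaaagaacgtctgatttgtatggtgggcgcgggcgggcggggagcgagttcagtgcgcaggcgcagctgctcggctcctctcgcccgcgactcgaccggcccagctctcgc
Bax: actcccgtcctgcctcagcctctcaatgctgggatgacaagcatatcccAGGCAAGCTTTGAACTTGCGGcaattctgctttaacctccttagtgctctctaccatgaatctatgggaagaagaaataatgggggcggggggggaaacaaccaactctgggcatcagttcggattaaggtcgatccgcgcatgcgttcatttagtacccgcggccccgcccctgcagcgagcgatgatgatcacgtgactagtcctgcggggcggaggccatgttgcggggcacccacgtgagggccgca
The element lies at -62 to -55 from the start in Plk2, at -166 to -159 in Btg2 and at -85 to -78 in Ppm1d, and the p53 site in Bax at -201 to -181 with 2 mismatches. The AP-1 motif TGANTCA, searched on both strands, was found in 7.81% of all windows and in those of Fas and Mdm4, and the ATF composite TGATGNAAN in 3.95% and in that of Polk. The CArG box CCWWWWWWGG, where W is A or T, was also searched on both strands. It was found in 1.63% of windows and in none of the members'. A match is a stretch of letters and does not show that a factor binds there. Bases outside these windows and the 8 members without a window were not searched. The lack of a match therefore does not show that a gene has no such site.

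Of the 4 members of growth arrest and translation control, PE raised Btg2, lowered Trp53inp1 and left Ccng1 without a call. Btg2 (ENSMUSG00000020423.7, GRCm38 chromosome 1, 134075170 to 134079120, minus strand), an antiproliferative cofactor of mRNA deadenylation, read 830.2, 828 and 897 in PBS control, 792, 752 and 767 in PBS knockdown, 1885, 2006 and 1801 in PE control and 1201, 1376 and 1474 in PE knockdown. Every PE library exceeded every PBS library, and PE control exceeded PE knockdown without overlap. The log2 change with PE was 1.15 ± 0.10 and 0.80 ± 0.10 (limma, adjusted p = 3.36e-08 and 3.61e-06). Trp53inp1 (ENSMUSG00000028211.12, GRCm38 chromosome 4, 11156431 to 11174379, plus strand), a stress protein gene that promotes p53 phosphorylation and autophagy, read 1928, 1506 and 1789 in PBS control, 1676, 1641 and 1987 in PBS knockdown, 747, 974 and 899.9 in PE control and 1135, 1038 and 1269.7 in PE knockdown. All PE libraries were below all PBS libraries. It fell with both GapmeRs, with a log2 change of -0.995 ± 0.12 in control and -0.62 ± 0.12 in knockdown cells (limma, adjusted p = 4.57e-06 and 6.82e-04). Zmat3, an RNA-binding splicing regulator, rose in control cells by 0.36 ± 0.10 (limma, adjusted p = 0.014), a call lost without PBS control replicate 1 or 3, without PE control replicate 2 or 3 and under rescaling to the same total. In knockdown cells its log2 change was 0.16 ± 0.10 (limma, adjusted p = 0.266). Ccng1 had log2 changes of 0.06 ± 0.11 and 0.19 ± 0.11, without passing (limma, adjusted p = 0.758 and 0.239).

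Of the 13 genes of apoptosis and death receptors, 7 rose with PE in control cells and 6 in knockdown cells, and 0 fell by the limma test in either. The shares called were thus 53.8% and 46.2%. Of genes with a mean of at least 50, 36.1% and 40.6% passed, and of all genes tested 25.4% and 27.4%. With libraries rescaled to the same total 3 rose in control cells (Bax, Tnfrsf10b and Aen) and 3 in knockdown cells (Pmaip1, Eda2r and Aen). Bax (ENSMUSG00000003873.12, GRCm38 chromosome 7, 45461697 to 45466898, minus strand), the effector that permeabilises the outer mitochondrial membrane, read 1796, 1778 and 1767 in PBS control, 2199, 2026 and 2043 in PBS knockdown, 2715, 3098 and 2738 in PE control and 2280.0, 3032 and 2938 in PE knockdown. The PE libraries lay above the PBS libraries in each arm. Bax rose by 0.68 ± 0.11 on the log2 scale in control and 0.39 ± 0.11 in knockdown cells (limma, adjusted p = 7.59e-05 and 0.00955), and the second call was lost without PE knockdown replicate 2 or 3. Aen (ENSMUSG00000030609.19, GRCm38 chromosome 7, 78895854 to 78911209, plus strand), an apoptotic nuclease gene, read 1757, 1834 and 1889.6 in PBS control, 2139.7, 2223 and 2109 in PBS knockdown, 3296, 3036 and 2565 in PE control and 2809.8, 3358 and 3138 in PE knockdown. Its libraries separated PE from PBS, with PE control running from 2565 to 3296. Aen rose by 0.69 ± 0.10 and 0.52 ± 0.10 (limma, adjusted p = 3.91e-05 and 6.61e-04).

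Pmaip1 encodes NOXA, a BH3-only protein that frees BAX and BAK. It read 120.5, 94.1 and 128 in PBS control, 136, 106 and 135 in PBS knockdown, 163, 179 and 164 in PE control and 219, 213 and 267 in PE knockdown. PE libraries stood above PBS libraries, with PE knockdown highest. Pmaip1 rose by 0.57 ± 0.16 in control and 0.89 ± 0.16 in knockdown cells (limma, adjusted p = 0.0113 and 2.39e-04), and the first call was lost without PBS control replicate 2 or PE control replicate 2. Both death receptor genes with a call rose, Tnfrsf10b by 0.49 ± 0.10 and 0.33 ± 0.10 and Eda2r by 0.45 ± 0.11 and 0.53 ± 0.11 (limma, adjusted p from 0.00112 to 0.0191). Without single libraries Tnfrsf10b lost its call in knockdown cells (replicates 1 and 3 of PBS knockdown and of PE knockdown) and Eda2r in control cells (PE control replicate 2).

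Phlda3 rose by 0.33 ± 0.10 in control cells (limma, adjusted p = 0.0231), a call lost without replicate 1 or 3 of PBS control or replicate 1 or 2 of PE control. Its log2 change was 0.01 ± 0.10 in knockdown cells (limma, adjusted p = 0.962). Pidd1, which encodes the core of the PIDDosome that activates caspase-2, rose by 0.51 ± 0.14 and 0.38 ± 0.14 (limma, adjusted p = 0.00989 and 0.0496), and the second call was lost in 17 of 21 alternatives. The other 6 had no call in either arm: Bbc3, the BH3-only gene for PUMA, Fas, a death receptor gene, Perp, Apaf1, the apoptosome scaffold gene, Ei24 and Triap1. Bbc3 had log2 changes of -0.16 ± 0.17 and -0.27 ± 0.17, and Apaf1 of 0.03 ± 0.11 and -0.11 ± 0.11. For Fas the values were 0.30 ± 0.14 and 0.14 ± 0.14, and for Perp 0.14 ± 0.12 and 0.22 ± 0.12. Those of Ei24 were 0.20 ± 0.09 and 0.23 ± 0.09, and those of Triap1 0.18 ± 0.20 and -0.15 ± 0.20.

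**Figure D3:**
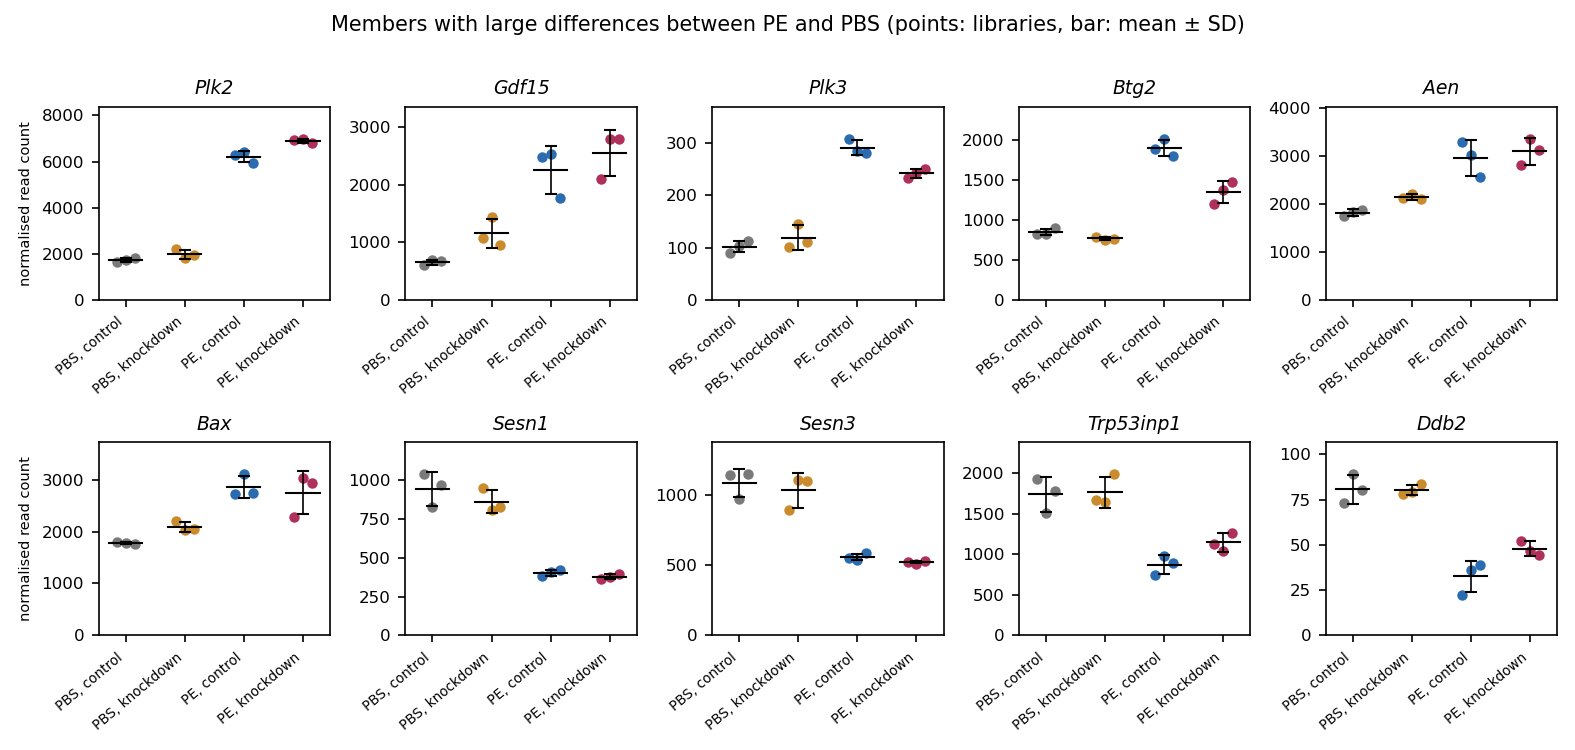
Normalised read count in each of the 12 libraries for 10 members with large changes with PE, by group, with mean ± SD (n = 3). For Plk2, Plk3, Btg2 and Gdf15 every PE library lies above every PBS library, and for Sesn1, Sesn3, Trp53inp1 and Ddb2 every PE library lies below.

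Among the 4 genes of DNA repair and nucleotide supply, Polk rose and Ddb2 fell. Polk (ENSMUSG00000021668.16, GRCm38 chromosome 13, 96480690 to 96542579, minus strand), a translesion DNA polymerase gene, read 619.6, 646 and 600.3 in PBS control, 569, 455 and 556 in PBS knockdown, 928, 965 and 1070.3 in PE control and 859.5, 709.7 and 750.5 in PE knockdown. Each PE library was above each PBS library. Its log2 change with PE was 0.66 ± 0.11 and 0.56 ± 0.11 (limma, adjusted p = 1.53e-04 and 7.97e-04). Ddb2 (ENSMUSG00000002109.15, GRCm38 chromosome 2, 91211572 to 91236982, minus strand), whose protein recognises ultraviolet damage for nucleotide excision repair, read 73.1, 89 and 80.2 in PBS control, 78, 79.5 and 83.4 in PBS knockdown, 22.6, 36.1 and 39.1 in PE control and 52.5, 46.8 and 44.7 in PE knockdown. It fell in both arms, and PE control libraries lay below PE knockdown libraries. The log2 change was -1.31 ± 0.21 in control and -0.73 ± 0.21 in knockdown cells (limma, adjusted p = 9.24e-05 and 0.0125). Ddb2 shares 652 bases with Acp2 on the opposite strand, whose mean value was 1040 against 60.4, and since no source used here says whether strand was counted, reads of the pair may not have been told apart. Xpc, which also recognises damage, had log2 changes of -0.10 ± 0.13 and 0.14 ± 0.13, and Rrm2b, the p53-inducible subunit of ribonucleotide reductase, of -0.31 ± 0.13 and 0.00 ± 0.13, with no call. In control cells Rrm2b was called, lower, in 4 of 21 alternatives.

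The 8 genes of metabolism, redox control and secretion moved in both directions: 1 rose and 4 fell in control cells, 2 rose and 4 fell in knockdown cells. These were 62.5% and 75%, beside 36.1% and 40.6% of genes with a mean of at least 50. Of all genes tested, 25.4% and 27.4% passed. Gdf15 (ENSMUSG00000038508.8, GRCm38 chromosome 8, 70629393 to 70632456, minus strand), a secreted stress cytokine of the TGF-beta superfamily, read 607, 689 and 672 in PBS control, 1079.8, 1446 and 959 in PBS knockdown, 2472, 2532 and 1779 in PE control and 2095, 2789 and 2787 in PE knockdown. PE libraries exceeded PBS libraries within each arm, and PBS knockdown libraries exceeded those of PBS control. With PE it rose by 1.77 ± 0.15 in control and 1.15 ± 0.15 in knockdown cells on the log2 scale (limma, adjusted p = 5.44e-08 and 1.31e-05).

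The sestrins, stress proteins that restrain mTORC1 and limit oxidative damage, split. Sesn1 (ENSMUSG00000038332.14, GRCm38 chromosome 10, 41809935 to 41908424, plus strand) read 1034, 823 and 967 in PBS control, 945, 806 and 827 in PBS knockdown, 384, 407 and 421 in PE control and 365, 374 and 394 in PE knockdown. It was lower in every PE library than in any PBS library, with a log2 change of -1.21 ± 0.11 in control and -1.18 ± 0.11 in knockdown cells (limma, adjusted p = 7.62e-08 and 1.20e-07). Sesn3 (ENSMUSG00000032009.9, GRCm38 chromosome 9, 14275067 to 14333101, plus strand) read 1144, 972 and 1149 in PBS control, 894, 1113 and 1101 in PBS knockdown, 555, 541 and 586 in PE control and 526, 513 and 530.1 in PE knockdown. It fell in the same manner, with -0.95 ± 0.11 in control and -0.98 ± 0.11 in knockdown cells (limma, adjusted p = 1.41e-06 and 1.13e-06). Sesn2 (ENSMUSG00000028893.9, GRCm38 chromosome 4, 132492032 to 132510501, minus strand) read 1407, 1740.4 and 1438 in PBS control, 1475, 2123 and 1437 in PBS knockdown, 1643, 1726 and 1482 in PE control and 2493, 2224 and 2017 in PE knockdown. Its libraries overlapped between PE and PBS in both arms, and its log2 change was 0.08 ± 0.13 in control and 0.44 ± 0.13 in knockdown cells, of which the second passed (limma, adjusted p = 0.706 and 0.0195). That call was lost without replicate 1 or 3 of PBS knockdown or replicate 1 or 2 of PE knockdown. It was also lost with values rescaled to the same total and with only the libraries compared (limma, adjusted p = 0.0908 and 0.0593).

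Steap3, an endosomal ferrireductase gene of iron uptake, read 842, 929 and 799 in PBS control, 716, 961 and 716 in PBS knockdown, 550.5, 596 and 548 in PE control and 486, 492 and 504 in PE knockdown. PE libraries were lower than PBS libraries within each arm. Its log2 change was -0.60 ± 0.12 in control and -0.68 ± 0.12 in knockdown cells (limma, adjusted p = 6.20e-04 and 1.75e-04). Fdxr, the mitochondrial ferredoxin reductase gene, fell with -0.52 ± 0.15 and -0.53 ± 0.15 (limma, adjusted p = 0.0131 and 0.00996), and the first call was lost without PE control replicate 3 and the second without PE knockdown replicate 1 or without the 3 libraries that stood apart. Ephx1 had log2 changes of -0.33 ± 0.12 and -0.20 ± 0.12 and Dcxr, a carbonyl reductase gene, of -0.23 ± 0.14 and -0.37 ± 0.14, with no call. Ephx1 was called lower in control cells in 7 of 21 alternatives, edgeR and DESeq2 among them, and Dcxr lower in knockdown cells in 4.

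The PE comparisons in control and in knockdown cells share no library. Of the 35 members, 18 were called in both, each in the same direction, 3 only in control cells (Mdm4, Zmat3 and Phlda3) and 2 only in knockdown cells (Trp53 and Sesn2), and 12 in neither. The log2 changes had the same sign for 29 members, against 73% of all genes tested. Across the 35 genes, which are not independent replicates, Pearson's r was 0.94 and Spearman's rho 0.92, beside an r of 0.88 across genes with a mean of at least 50. These are descriptions of the sizes of the changes, and the libraries of both comparisons share the PE treatment and one processing.

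**Figure D4:**
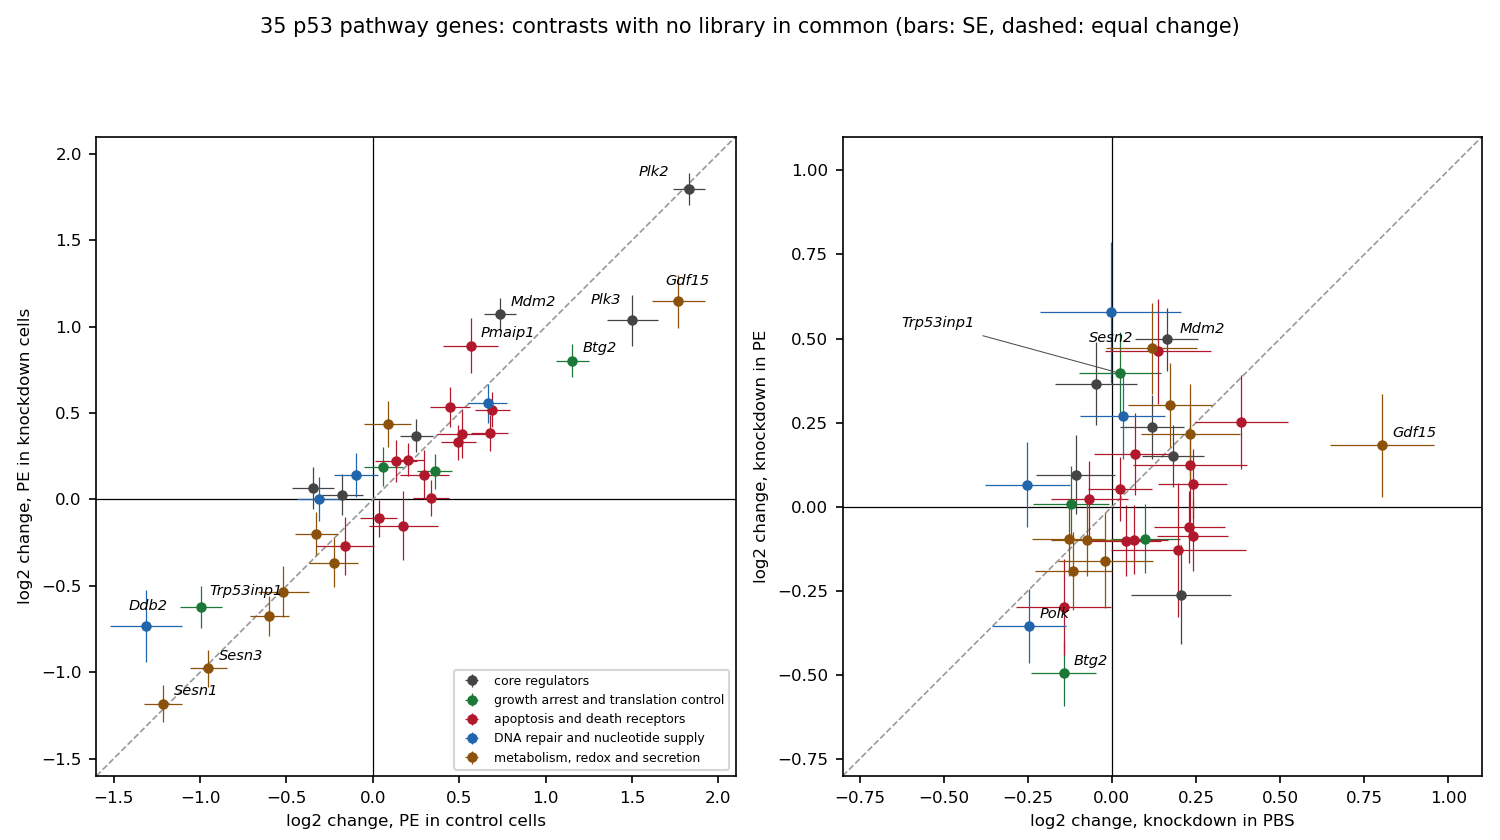
Log2 change of each member in 2 comparisons that share no library, with limma standard errors as bars: PE in control against PE in knockdown cells (left) and the knockdown in PBS against the knockdown in PE (right). On the left, points lie along the dashed line of equal change (r = 0.94). On the right, they scatter (r = 0.32), with Gdf15 off to one side.

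The direct test of whether the PE response of a member differed between the GapmeRs was the interaction. It called 0 of 35 (limma, smallest adjusted p = 0.382), beside 0.055% of all genes tested. edgeR and DESeq2 on recovered reads also called 0, and 7 members had an unadjusted p under 0.05 by limma: Mdm2, Mdm4, Plk3, Btg2, Trp53inp1, Phlda3 and Gdf15. Their interaction values were 0.34 ± 0.13, 0.41 ± 0.17, -0.47 ± 0.21, -0.35 ± 0.14, 0.37 ± 0.17, -0.33 ± 0.15 and -0.62 ± 0.22 in that order on the log2 scale. Without the 3 libraries that stood apart, Mdm4 alone was called (0.55, adjusted p = 0.0450 by limma). With standard errors of 0.13 to 0.30 for the members, an interaction of the size of that of Btg2 was not detectable over 21799 genes.

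The knockdown in PBS changed 1 of 35 members, beside 4.57% of all genes tested (1.36% higher, 3.21% lower) and 7.56% of those with a mean of at least 50, so the members' share did not exceed the background. Libraries did not overlap for 9 members, against 22% of all genes. The 1 member called, which rose, was Gdf15. It read 607 to 689 in PBS control and 959 to 1446 in PBS knockdown, a log2 rise of 0.80 ± 0.15 (limma, adjusted p = 0.00375), and it was called in all 21 alternatives. At an unadjusted p under 0.05 there were 6 members by limma: Bax, Phlda3, Pidd1, Aen, Polk and Gdf15. The libraries of PBS control and PBS knockdown did not overlap for any of these 6. The log2 change of Pidd1 was 0.39 ± 0.14, that of Phlda3 0.24 ± 0.10 and that of Polk -0.25 ± 0.11, with no call (limma, adjusted p = 0.138, 0.231 and 0.251). The log2 change of Bax was 0.23 ± 0.11 and that of Aen 0.24 ± 0.10, neither of which passed (limma, adjusted p = 0.265 and 0.216). For Trp53 it was 0.12 ± 0.10, for Mdm2 0.16 ± 0.09 and for Mdm4 -0.05 ± 0.12, none of which passed (limma, adjusted p = 0.566, 0.395 and 0.889). The count was 2 without PBS knockdown replicate 1. Without the 3 libraries that stood apart it was 4, with Mdm2, Perp and Ephx1 added.

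The knockdown in PE changed 5 of 35, 3 higher and 2 lower. This share was near the background, which was 11.7% of all genes tested (4.57% higher, 7.14% lower) and 18.5% of those with a mean of at least 50. Libraries did not overlap for 19 members, against 30.5% of all genes, which include many lower in level than the members. Higher were Mdm2, Sesn2 and Trp53inp1, and lower were Btg2 and Polk. Of these, Mdm2 and Btg2 were called in all 21 alternatives. Mdm2 read 4230 to 4336 in PE control and 5802 to 6277 in PE knockdown, a log2 rise of 0.50 ± 0.09 (limma, adjusted p = 0.00124). Btg2 read 1801 to 2006 in PE control and 1201 to 1474 in PE knockdown, a log2 change of -0.49 ± 0.10 (limma, adjusted p = 0.00171). For neither gene did the libraries of the 2 groups overlap.

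Sesn2 had a log2 change of 0.47 ± 0.13 (limma, adjusted p = 0.0266), a call lost without PE control replicate 1 or 3 or PE knockdown replicate 1 or 2. Trp53inp1 had 0.40 ± 0.12 (limma, adjusted p = 0.0406), and its call was lost in 7 of 21 alternatives, including edgeR and leaving out PBS control replicate 3, PE control replicate 1 or 3, or PE knockdown replicate 1 or 3. For Polk the change was -0.35 ± 0.11 (limma, adjusted p = 0.0439), lost in 11 of 21, including rescaling to the same total and leaving out PBS control replicate 1 or 3, PBS knockdown replicate 3, any PE control library or PE knockdown replicate 2 or 3. The log2 change of Trp53 was 0.24 ± 0.10 and that of Mdm4 0.37 ± 0.12, with no call (limma, adjusted p = 0.127 and 0.0602). For Pmaip1 it was 0.46 ± 0.16 and for Ddb2 0.58 ± 0.21, again with no call (limma, adjusted p = 0.0646 and 0.0858). Mdm4 and Pmaip1 were each called higher in 7 of 21 alternatives, among them DESeq2, a common library total, only the libraries compared and leaving out PBS control replicate 2 or PBS knockdown replicate 2. In PE, 11 members had an unadjusted p under 0.05, and single libraries moved the number called: it was 2 without PE control replicate 1 or 3, 3 without PBS control replicate 3 or any PE knockdown library, and 8 without PBS knockdown replicate 2. With libraries rescaled to the same total there were 8 higher and 1 lower, so the split of directions in PE depended on the scaling. Without the 3 libraries that stood apart there were 7 higher and 2 lower.

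The 2 knockdown comparisons share no library either. No member was called in both, Gdf15 only in PBS and Mdm2, Btg2, Trp53inp1, Polk and Sesn2 only in PE. Without the 3 libraries that stood apart, Gdf15 and Mdm2 were called higher in both, Gdf15 in PE with a log2 change of 0.32 and Mdm2 in PBS with 0.26 (limma, adjusted p = 0.0331 and 0.0361). The signs were the same for 22 of 35 members, against 62.8% of all genes tested. Across the members Pearson's r was 0.32 and Spearman's rho 0.36, beside 0.66 (Pearson's r) across genes with a mean of at least 50. Beside these changes, the summed cardiomyocyte markers were 636372 to 738210 in PBS control and 516436 to 560159 in PBS knockdown, and 850568 to 1145920 in PE control and 686699 to 799926 in PE knockdown, and 1 of these 8 markers passed the test, in PE (Ryr2, lower). All 8 had a negative log2 change in both media. edgeR and DESeq2 each called 1 lower in PBS and 4 in PE, and without the 3 libraries that stood apart limma called 2 and 5. In PE 2 of 8 fibroblast markers, 2 of 8 endothelial markers and Acta2, a smooth muscle actin gene (-0.44 ± 0.11, limma, adjusted p = 0.0151), were also lower. In PBS the macrophage marker C1qc was higher by 1.52 ± 0.26 on the log2 scale (limma, adjusted p = 0.00124). C1qc was the 1 called of the 8 leukocyte markers, of which 3 had a positive and 5 a negative log2 change. The summed leukocyte markers ran from 1580 to 2248 in PBS control and from 1562 to 1780 in PBS knockdown. The part of these markers in the members' results was not tested.

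**Figure D5:**
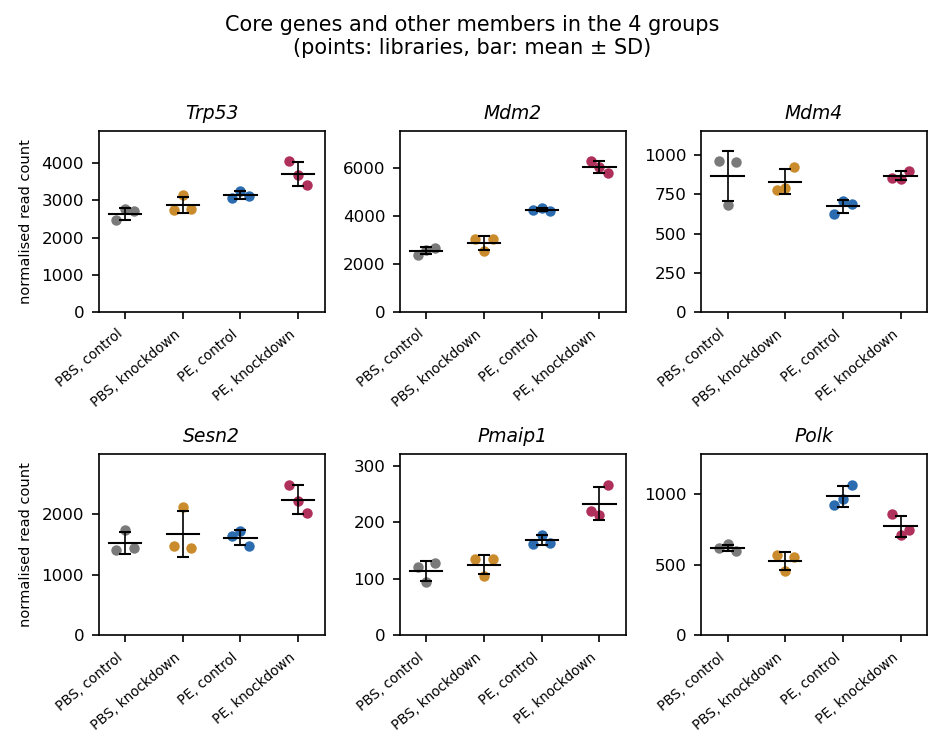
Normalised read count in each library for Trp53, Mdm2, Mdm4, Sesn2, Pmaip1 and Polk, by group, with mean ± SD (n = 3) as horizontal and vertical bars. Mdm2 in PE knockdown runs from 5802 to 6277, above the other 3 groups, and Mdm4 in PE control lies between 625 and 707.

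Of 30 further p53 targets, Cdkn1a and Trp53cor1 among them, 8 rose and 3 fell with PE in control cells. In knockdown cells 9 rose and 5 fell. These shares, 36.7% and 46.7%, were near those of genes with a mean of at least 50, 36.1% and 40.6%. Of all genes tested, 25.4% and 27.4% passed. The split of directions depended on the scaling, with 5 higher and 8 lower in control cells and 7 and 8 in knockdown cells after rescaling to the same total. Sfn, the gene of 14-3-3 sigma, rose by 1.62 ± 0.20 and Bcl6, a transcriptional repressor gene, by 0.92 ± 0.12 with PE in control cells, while Spata18, a mitochondrial quality control gene, fell by 1.92 ± 0.57 (limma, adjusted p = 5.98e-06, 6.63e-06 and 0.0173). In PE, the knockdown raised Gadd45a, a growth arrest gene, by 1.05 ± 0.17 and Bid, a BH3-only gene, by 0.67 ± 0.14 (limma, adjusted p = 2.5e-04 and 0.00255), among 2 that rose and 3 that fell, of which Trp53cor1 is the GapmeR target. Bid shares 628 bases with Bcl2l13 on the opposite strand, whose mean value was 1944 against 294, so its value carries the same doubt as that of Ddb2. In PBS, 0 rose and 2 fell (Trp53cor1 and Ckap2). The shares called were 16.7% in PE and 6.67% in PBS, beside 18.5% and 7.56% of genes with a mean of at least 50. Of all genes tested, 11.7% passed in PE and 4.57% in PBS. Both shares of the list count Trp53cor1, whose fall the GapmeR is designed to cause and whose mean of 32.6 lies below 50. Without the 3 libraries that stood apart, 5 rose and 5 fell in PE and 2 rose and 3 fell in PBS.

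Of 26 upstream regulators and cofactors of p53, 5 rose and 2 fell with PE in control cells, and 7 rose and 2 fell in knockdown cells. The shares called were 26.9% and 34.6%. Of genes with a mean of at least 50, 36.1% and 40.6% passed, and of all genes tested 25.4% and 27.4%. After rescaling to the same total 3 were higher and 5 lower in control cells and 2 and 6 in knockdown cells. Hipk2, a kinase that phosphorylates p53, rose by 0.95 ± 0.22 and Rpl5 and Rpl11, ribosomal proteins that bind MDM2, by 0.52 ± 0.13 and 0.52 ± 0.14 in control cells (limma, adjusted p = 0.00338, 0.0054 and 0.00894). Prkdc, the DNA-PK catalytic subunit gene, fell with the knockdown by 0.54 ± 0.11 in PBS and 0.66 ± 0.11 in PE, and Trim28 rose by 0.34 ± 0.09 and 0.39 ± 0.09 (limma, adjusted p = 0.00623, 3.8e-04, 0.0466 and 0.0085). In all, 1 rose and 1 fell in PBS and 2 rose and 1 fell in PE (7.69% and 11.5% called). Of all genes tested 4.57% and 11.7% passed, and 7.56% and 18.5% of those with a mean of at least 50. Without the 3 libraries that stood apart 2 rose and 2 fell in PBS and 2 rose and 5 fell in PE. The 16 cell cycle genes known to be lowered through p53, p21 and the DREAM complex had 8 that fell and 0 that rose with the knockdown in PBS, and 9 and 0 in PE. These were 50% and 56.2% of the list, beside 7.56% and 18.5% of genes with a mean of at least 50. Of all genes tested, 4.57% and 11.7% passed. The list was chosen with earlier results of these data known, so these shares are a description only. The cause of the lower values was not tested. Mki67, Bub1 and Plk1 changed by -0.77 ± 0.14, -0.76 ± 0.17 and -0.69 ± 0.13 in PBS (limma, adjusted p = 0.00331, 0.0136 and 0.00447). Rescaled to the same total, 6 fell in PBS and 4 in PE, and without the 3 libraries 11 fell in each. With PE, 1 rose and 2 fell in control cells, and 0 rose and 2 fell in knockdown cells, 18.8% and 12.5% of the list and below the background. Rescaled to the same total, 0 were higher and 6 lower in control cells and 0 and 5 in knockdown cells, and without the 3 libraries 2 and 6 in control cells and 0 and 1 in knockdown cells.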

How the data were processed

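Polyadenylated RNA of 12 libraries, 3 in each of 4 groups, was sequenced as paired-end reads, per the labels. Reads were aligned with STAR to GRCm38.p6, handled with SAMtools and counted with featureCounts, per the submitters' processing notes. No source used here gives versions, annotation or strand use. The authors deposited a signal per gene, which is a read count divided by 1 size factor per library (0.921 to 1.11). Dividing by each column's step gave whole reads for 100% of values (tolerance 0.001), 21325485 to 22139681 per library.

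limma 3.58.1 with a trended prior was run on log2(value + 1) of the 21799 genes whose mean value reached 1, with 4 group means over all 12 libraries, two-sided, with Benjamini-Hochberg adjustment at 0.05. A fold change on this scale understates that of low genes. The 5 comparisons were PE in control and in knockdown cells, the knockdown in PBS and in PE, and the interaction. A call means an adjusted p under 0.05, and a pair of groups is apart when no library of one lies within the range of the other. Symbols, spans and exon lengths came from GENCODE M21. Of the 35 members 3 overlap another tested gene, of which 1 (Ddb2) overlaps a higher one. Promoter windows came from RefSeq (GRCm38.p6).

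All members are named. Values of every library are given for Trp53, Mdm2 and Mdm4 and for called members among the 12 largest changes of a comparison, and up to 4 called genes per comparison may be named from another list. The members and lists were chosen with earlier results of these data known. The fit was tested on simulated data. Alternatives were a pseudocount of 0.1, no filter, a filter of 1 CPM in 3 libraries, edgeR 4.0.16 (TMM) and DESeq2 1.42.0 on recovered reads, a common library total, only the libraries compared, a replicate block and each library left out. A fit without the 3 libraries that stood apart was added after the data were seen. Residuals of libraries with the same replicate number correlated between -0.435 and 0.409. Pairs with different numbers were not compared, so this does not settle whether libraries with the same number share a preparation.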

Additional observations from a re-analysis of the deposited data

How the results depend on the processing

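No member reversed its direction with a call under any of 21 alternatives (20 for the interaction). With each library left out, members called ran from 16 to 24 for PE in control cells (all genes 4263 to 6552), 16 to 20 for PE in knockdown cells (4906 to 6129), 1 to 2 for the knockdown in PBS (510 to 1181), 2 to 8 for the knockdown in PE (1671 to 3502) and 0 to 0 for the interaction (3 to 22). For the knockdown in PBS, 392 genes in place of 997 were called with only the libraries compared, and 1865 without the 3 libraries that stood apart, with 4 members. For the knockdown in PE, 3 members were called with no filter, 9 with values rescaled to the same total and 9 without the 3 libraries, where all genes went from 2553 to 4672. For the interaction, all genes went from 12 to 124 with DESeq2 and 143 without the 3 libraries, with 1 member. The cause of these shifts was not tested.

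With the replicate block, limma called 21, 20, 1, 4 and 0 members in the 5 comparisons in the order above. The block ended the call of Polk for the knockdown in PE (limma, adjusted p = 0.0575). The labels do not say whether libraries with the same number share more than that number. Values rest on 3 libraries per group, and with standard errors of 0.09 to 0.21 for the members small differences were not detectable. The lowest count of a member in a library, 21 reads, belongs to Ddb2.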
